A study of Saccharomyces cerevisiae with 4 samples.

Results

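The 10 genes described here make, store and break down the reserve carbohydrates of Saccharomyces cerevisiae, or supply their precursor UDP-glucose. They were chosen by name, with no measured value in the rule, but with earlier results of these data known. PGM1, PGM2 and UGP1 belong to precursor supply (3 genes), and TPS1, TPS2, TSL1, NTH1, GSY2, GLC3 and GPH1 to the reserve steps (7 genes). They are 10 of the 6207 yeast rows of the arrays, and each systematic name matched a gene in NCBI RefSeq's R64 table. Of the 10, 7 had a value on all 4 arrays and were tested, TSL1 had 2 values, GSY2 had 3, and GPH1 had none.

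Each array compared RNA of hog1 cells exposed to Zymolyase with RNA of hog1 cells left without it. The hog1 mutation, which both parts of every culture carried, affects the mitogen-activated protein kinase of the high-osmolarity pathway. The labels name neither its allele nor the parent strain. Growth was in YEPD, a rich medium, at 24 °C, cultures were split, and 1 part received 5 units/ml of Zymolyase 100T, an enzyme preparation that digests the beta-glucan of the yeast cell wall. RNA was taken at 3 h from 2 cultures, with a dye swap for each, which gave 4 arrays of 2 colours. On arrays 1 and 3 Cy3 labelled the treated RNA, and on arrays 2 and 4 Cy5 did. Which arrays shared a culture is not stated, and no wild-type cells were analysed here.

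Phosphoglucomutase turns glucose 6-phosphate into glucose 1-phosphate, and UDP-glucose pyrophosphorylase joins glucose 1-phosphate to a uridine nucleotide to form UDP-glucose. UDP-glucose then feeds several ends: the disaccharide trehalose, the branched polymer glycogen, the beta-glucans of the wall and the glucosyl groups added to lipids and proteins. In yeast, trehalose and glycogen build up as growth slows or under stress, and many of the genes for both are known to be controlled by the stress factors Msn2 and Msn4 through STRE promoter elements.

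Values are log2 ratios of treated over untreated, on the deposited scale, with arrays 2 and 4 turned in sign. That direction is likely and not stated, and the opposite numerator would turn every sign below, while sizes and p-values would stand. Arrays 1 to 4 held 2794, 4162, 5322 and 5127 yeast values and 7, 8, 9 and 9 of the 10 genes, and 2715 genes had all 4 values. HOG1 itself had no value on any array, so the strain label could not be checked. Over the 2715 genes the median log2 ratio was −0.05 and the median SD over the 4 arrays 0.29. In bulk RNA, a change in the share of cells that express a gene and a change in RNA per cell cannot be told apart.

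**Figure D1:**
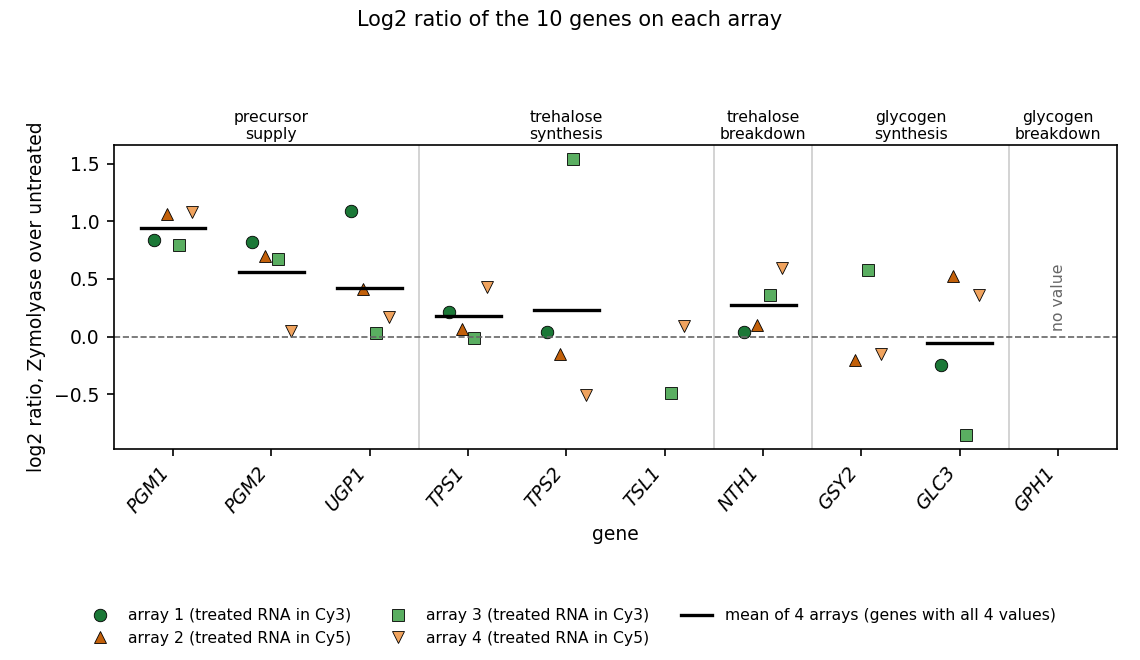
Log2 ratio (treated over untreated, vertical axis) of the 10 genes (horizontal axis, grouped by role), with a point per array and a black bar at the mean of 4 arrays for the 7 genes with all 4 values. The 4 PGM1 points lie between 0.80 and 1.08, TPS2 and GLC3 have points on both sides of 0, and GPH1 has no value.

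Of the 3 genes of precursor supply, PGM1 rose in the treated cells, and PGM2 and UGP1 had means above 0 that did not pass the test. PGM1 (YKL127W), the minor isozyme of phosphoglucomutase, had log2 ratios of 0.84, 1.06, 0.80 and 1.08 on arrays 1 to 4. All 4 lay close together, far from 0. The mean was 0.94 ± 0.15 (SD, n = 4 arrays), a 1.92-fold rise, with an adjusted p of 0.0341 by limma over the 2715 genes and an unadjusted 95% interval of 0.62 to 1.27. By mean ratio PGM1 was 64th from the top, or from the bottom with the opposite numerator. Its SD was small, with 11.3% of tested genes at or below it.

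PGM2 (YMR105C), the major phosphoglucomutase, had 0.82, 0.70, 0.67 and 0.05. Arrays 1 to 3 lay close together, and array 4 stood near 0. The mean of 0.56 ± 0.35 (1.48-fold) did not pass (adjusted p = 0.241 by limma), and its unadjusted 95% interval ran from 0.16 to 0.96. PGM1 lay above PGM2 on all 4 arrays, by 0.02, 0.36, 0.13 and 1.03. The mean difference of 0.38 ± 0.45 was smaller than its SD. These paralogues are alike in sequence, and how much labelled cDNA of one reached the array row of the other was not tested.

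UGP1 (YKL035W), which makes UDP-glucose itself, had 1.09, 0.41, 0.03 and 0.17. All 4 values were above 0, but array 1 was far above arrays 3 and 4. The mean of 0.42 ± 0.47 (1.34-fold) did not pass (adjusted p = 0.382 by limma), with an unadjusted interval of −0.07 to 0.92. PGM1 exceeded UGP1 on 3 of 4 arrays, and array 1 went the other way.

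The call for PGM1 was near the threshold. With the spread made equal between arrays its mean was 0.96 and its adjusted p 0.0636 by limma, without array 2 the mean was 0.90 and the adjusted p 0.21, and without array 4 they were 0.90 and 0.0916. Over the 14 alternatives run for this test its mean stayed between 0.82 and 1.07, while its adjusted p ranged from 7.06e-08 to 0.21. A fit that leaves out an array has 1 culture represented by a lone array, in which the dye is not balanced. Its p tests the average of the 2 culture means, which is not the quoted mean of the arrays left. Were the cultures shared by arrays 1 and 4 and by arrays 3 and 2, PGM2 would be called as well (adjusted p = 0.00517 by limma). In that pairing, which also gave the 7.06e-08 of PGM1, limma used 1 common spread for all genes. Those p-values therefore take no account of the spread of each gene. The larger p of both possible pairings was used throughout, except in fits of single orientations and of the 4 arrays singly.

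None of the 4 tested genes of the reserve steps passed the test in either direction by limma, and 0 had an unadjusted p under 0.05. Over all 2715 tested genes these shares were 2.21% and 14.7%, so counts of 0 among 4 genes do not set the reserve steps apart. In trehalose synthesis, TPS1 (YBR126C), the trehalose-6-phosphate synthase, had 0.21, 0.07, −0.01 and 0.43. The values straddled 0 only narrowly, and the mean was 0.18 ± 0.20 (adjusted p = 0.588 by limma), with an unadjusted interval of −0.13 to 0.48. Its p and interval come from the pairing in which all genes were given 1 common spread. TPS2 (YDR074W), the phosphatase that completes trehalose, had 0.04, −0.15, 1.54 and −0.50. Array 3 alone was far above 0, and the mean of 0.23 ± 0.90 did not pass (adjusted p = 0.582 by limma). Its SD was among the widest, with 97.4% of tested genes at or below it. Without array 3 the mean of TPS2 was −0.20. TSL1 (YML100W), the large regulatory subunit of the trehalose synthase complex, had −0.49 on array 3 and 0.09 on array 4 and was not tested.

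NTH1 (YDR001C), the neutral trehalase that breaks trehalose down, had 0.04, 0.10, 0.36 and 0.59. All 4 values lay above 0, as for the 3 precursor genes. Its mean of 0.27 ± 0.25 (1.21-fold) did not pass (adjusted p = 0.467 by limma), with an unadjusted interval of −0.12 to 0.67. Set against the synthase gene TPS1 within arrays, NTH1 was higher on 3 of 4, with a mean difference of 0.10 ± 0.23 that was smaller than its SD.

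In glycogen metabolism, GLC3 (YEL011W), the branching enzyme, had −0.25, 0.53, −0.85 and 0.36. The sign followed the dye, below 0 on both arrays with treated RNA in Cy3 and above 0 on both with treated RNA in Cy5. The mean of −0.05 ± 0.63 did not pass (adjusted p = 0.896 by limma), with an unadjusted interval of −0.45 to 0.34. GSY2 (YLR258W), the main glycogen synthase, had −0.20, 0.58 and −0.16 on arrays 2, 3 and 4. Array 3, which stood apart, was its only array with treated RNA in Cy3, so array and dye cannot be told apart. The mean of the 3 values was 0.07. In a fit of the 4090 rows with at least 3 values GSY2 did not pass (adjusted p = 0.9996 by limma). That fit tests the average of the 2 culture means, with an unadjusted interval of −0.41 to 0.42. GPH1 (YPR160W), the glycogen phosphorylase that releases glucose units, had no value, so glycogen breakdown is not described by these arrays.

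Read over the list, 1 of 7 tested genes was called, against 2.21% of all 2715 tested genes in either direction and 2.03% in the direction higher. That share rests on PGM1 alone. Of the 7 means, 6 lay above 0, where 40.6% of all tested genes did, and the median of the 7 was 0.27 against −0.05 over all tested genes. All 4 arrays had 1 sign for 4 of the 7 (PGM1, PGM2, UGP1 and NTH1, each above 0), against 25.1% of all tested genes, where 9.83% had every array above 0 and 15.2% every array below 0. The 7 are those with a value on every array and do not stand for the 10. The list was chosen with earlier results of these data known, so these shares only describe it.

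**Figure D2:**
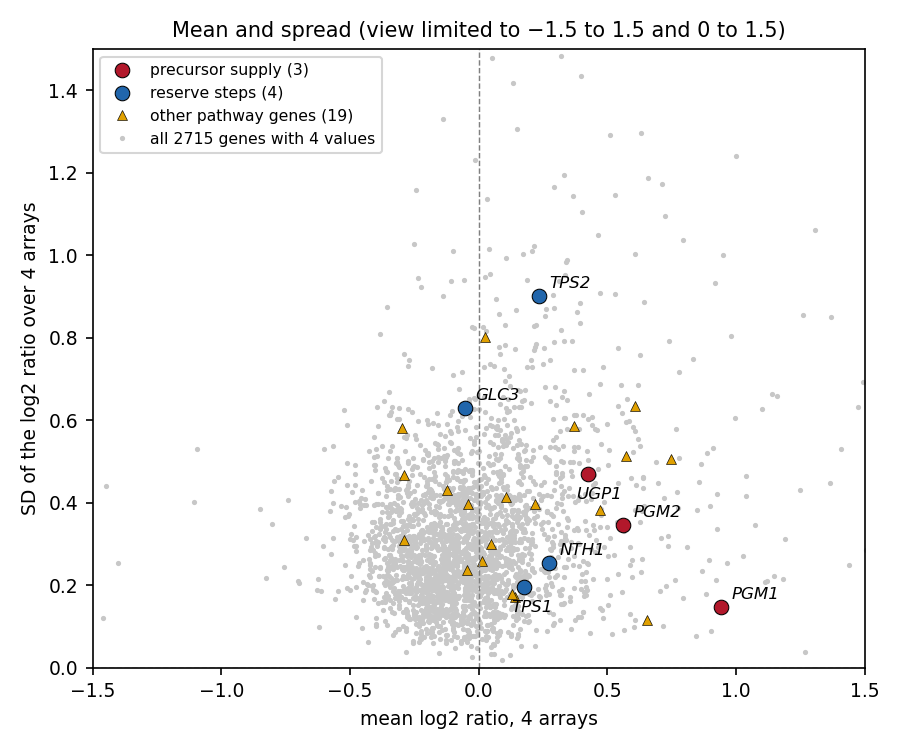
SD over the 4 arrays (vertical axis) against the mean log2 ratio (horizontal axis) for the 7 tested genes (red and blue, named), 19 other pathway genes (triangles) and all 2715 tested genes (grey, those inside the axes). PGM1 stands far to the right at a low SD of 0.15, and TPS2 near the middle at an SD of 0.90.

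The study's dye swap allows each gene to be read in both orientations. PGM1 had a mean of 0.82 with treated RNA in Cy3 and 1.07 with treated RNA in Cy5. It was called in each orientation alone (adjusted p = 0.0373 and 0.0185 by limma). Such a fit tests 2 arrays without pairing, and dye and treatment cannot be told apart in it. PGM2 had 0.74 and 0.38, UGP1 0.56 and 0.29, TPS1 0.10 and 0.25, and NTH1 0.20 and 0.35, in the same order of orientations. Those 4 genes kept a mean above 0 in each orientation. TPS2 had 0.79 and −0.33, and GLC3 −0.55 and 0.45, so the sign of both turned with the dye. The gaps between orientations, Cy5 minus Cy3, were −1.12 for TPS2 and 0.99 for GLC3, where the median size over all tested genes was 0.28. Of the 4 tested reserve genes 2 had signs that split fully by dye, and 0 of the 3 precursor genes, against 15.9% of all tested genes. TSL1 and GSY2 also had signs that differed between the dyes, but array 3 was their only value with treated RNA in Cy3. The part of the dye in the ratios of TPS2, GLC3, TSL1 and GSY2 was not tested.

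**Figure D3:**
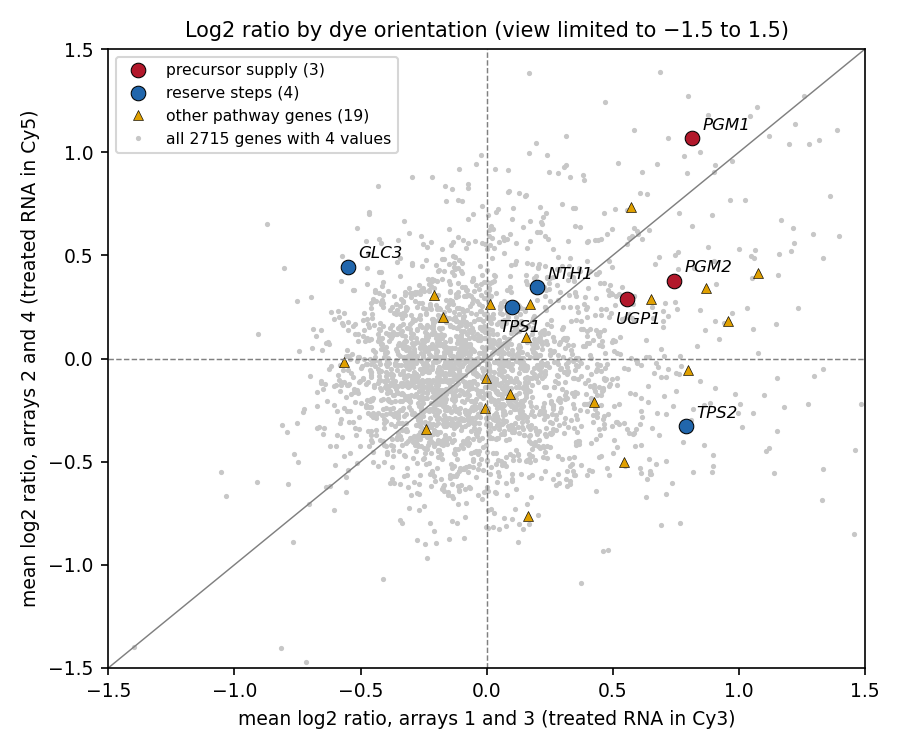
Mean log2 ratio on arrays 2 and 4 (treated RNA in Cy5, vertical axis) against that on arrays 1 and 3 (treated RNA in Cy3, horizontal axis), with a point per gene and a line where both are equal; the view is limited to ±1.5. PGM1 lies near the line at 0.82 and 1.07, while TPS2 and GLC3 lie in the corners where the signs differ.

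Precursor supply was then set against the reserve steps within each array, over the 3 and 4 genes with all 4 values. The mean of the precursor genes was 0.91, 0.73, 0.50 and 0.43 on arrays 1 to 4, and that of the reserve genes 0.01, 0.14, 0.26 and 0.22. Precursor supply was higher on all 4 arrays, by 0.90, 0.59, 0.24 and 0.21. The mean difference was 0.49 ± 0.33 (SD, n = 4 arrays), from 0.64 ± 0.22 for precursor supply and 0.16 ± 0.11 for the reserve steps. Within the reserve steps TPS2 and GLC3 had opposite signs on every array and partly cancelled. Their own SDs were 0.90 and 0.63, so the 0.11 does not describe the spread of single genes. The set also averages NTH1, of trehalose breakdown, with genes of synthesis. No p is given, since the genes are not replicates and were chosen with results known. The difference rests in part on PGM1. Averaging only PGM2 and UGP1 gave differences of 0.94, 0.42, 0.09 and −0.11, with a mean of 0.34 ± 0.46, so that array 4 turned its sign. Leaving out TPS2 gave −0.03 on array 4, and the median of each set in place of the mean gave −0.23 there.

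**Figure D4:**
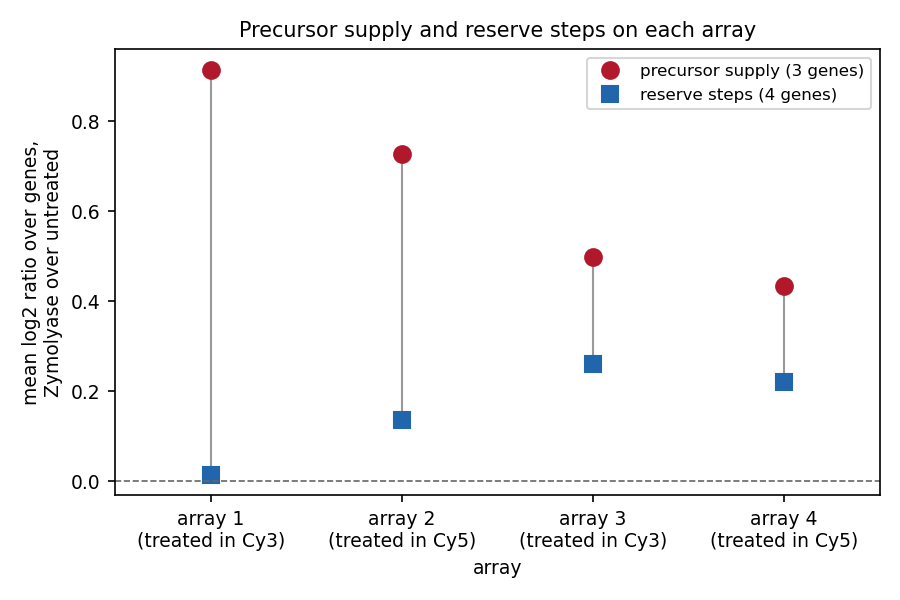
Mean log2 ratio (vertical axis) of the 3 precursor genes (red circles) and the 4 reserve genes (blue squares) on each array (horizontal axis), joined by a grey line for the difference. The red circle is above the blue square on every array, by 0.90 on array 1 and by 0.21 on array 4.

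The other genes of these routes were a list of 48, of which 19 had all 4 values, 22 had values on 1 to 3 arrays and 7 had none. None of the 19 was called by limma, against 2.21% of all tested genes, and the median of the 19 means was 0.11. Of the 19, 4 had an unadjusted p under 0.05 by limma (HXK1, GLK1, FKS1 and BCY1), against 14.7% of all tested genes. Upstream of phosphoglucomutase, the 4 genes of glucose phosphorylation were all tested, and HXK1 and GLK1 had the 2 largest means of the 19, while HXK2 and EMI2 had 0.22 ± 0.40 and 0.05 ± 0.30. HXK1, a hexokinase, had 1.37, 0.70, 0.78 and 0.13, with a mean of 0.75 ± 0.51 (adjusted p = 0.175 by limma). GLK1, the glucokinase, had 0.55, 0.82, 0.60 and 0.65, a tight set with a mean of 0.65 ± 0.12 (1.57-fold, adjusted p = 0.106). PGI1, which links glucose 6-phosphate to glycolysis, had 0.41, −0.02, 1.19 and −0.09, highest on array 3 and with signs split by dye. PGM3, also known as PRM15, had a mean of −0.04 ± 0.40. Of the 19 genes, 4 had signs that split fully by dye (EMI2, PGI1, GLG1 and GLC8), against 15.9% of all tested genes.

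Of the 8 listed users of UDP-glucose outside the reserves, 2 were tested. These were the glucan synthase genes FKS1 and GSC2, with means above 0 that did not pass. The 6 others had values on 1 to 3 arrays, of both signs, and were not tested with the rest. FKS1 had 1.13, −0.07, 0.79 and 0.44, a mean of 0.57 ± 0.51 (adjusted p = 0.15 by limma). GSC2, the alternative catalytic subunit, had 1.41, 0.76, 0.33 and −0.08, with a mean of 0.61 ± 0.63. Both were highest on array 1, where UGP1 and HXK1 were also highest.

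Paralogues of the reserve genes had values on 3 arrays and were not tested with the rest. TPS3, the paralogue of TSL1, had 0.02, −0.01 and 0.46 on arrays 2, 3 and 4. NTH2, the paralogue of NTH1, had −0.84, 0.75 and −0.27, and GSY1, that of GSY2, had 0.54, 0.58 and −0.19. NTH2 and GSY2 shared their pattern of signs, above 0 only on array 3, the only array of the 3 with treated RNA in Cy3. GSY1 differed from GSY2 on array 2. YHL012W, related to UGP1, had no value. In the fit with at least 3 values per row the adjusted p-values of TPS3, NTH2 and GSY1 were 0.81, 0.732 and 0.696 by limma.

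Among the genes of glycogen priming and control, ratios of both signs were found, and none was called. GLG1, a glycogenin that starts the glycogen chain, had 0.27, −0.38, 0.58 and −0.04, with signs split by dye. GLC8, a regulator of the Glc7 phosphatase, had 0.28, −0.51, 0.05 and −1.02 (mean −0.30 ± 0.58), again split by dye. PCL8, a cyclin that acts with Pho85 on glycogen synthase, had −0.47, 0.40, −0.66 and −0.42 (mean −0.29 ± 0.47). Of the regulators of stress and reserve genes, BCY1, the inhibitory subunit of protein kinase A, had 0.36, 0.56, 0.94 and 0.03 (mean 0.47 ± 0.38, adjusted p = 0.228 by limma). PDE2, a cyclic AMP phosphodiesterase, had 0.06, −0.12, −0.53 and −0.57 (mean −0.29 ± 0.31).

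**Figure D5:**
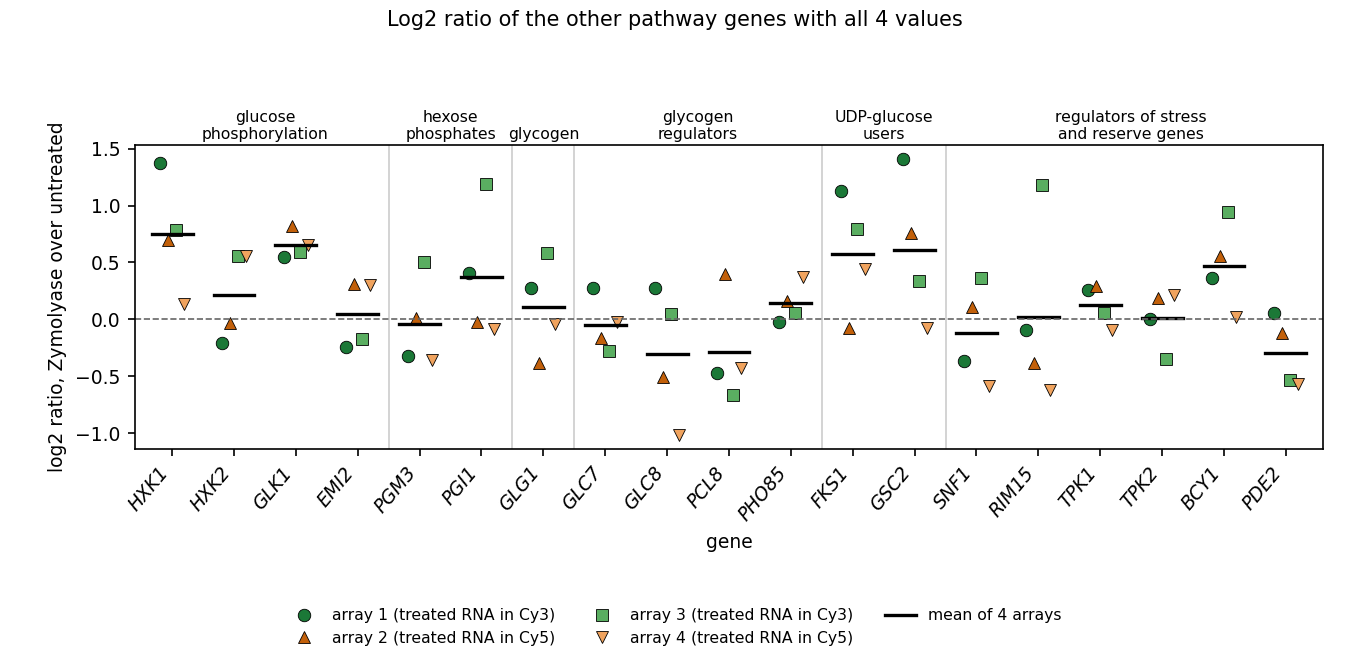
Log2 ratio (vertical axis) of the 19 other pathway genes with all 4 values (horizontal axis, grouped by role), with a point per array and a bar at the mean. GLK1 is the tightest set well above 0, between 0.55 and 0.82, and HXK1, FKS1 and GSC2 reach over 1.1 on array 1.

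The genes whose profile over the 4 arrays lay nearest to that of PGM1, by root mean square distance of the log2 ratio among the 2715 tested genes, were FDC1 (0.13), CRH1 (0.14) and GIC2 (0.15). FDC1 encodes a decarboxylase of phenolic acids, CRH1 an enzyme that links chitin to glucan in the wall, and GIC2 an effector of the polarity GTPase Cdc42. FDC1 had a mean of 0.85 and an adjusted p of 0.0503 by limma, CRH1 0.88 and 0.0461, and GIC2 0.89 and 0.0449. With 4 arrays of a single comparison, this likeness says only that the ratios were of like size on each array. In R64, none of the 10 genes overlapped another annotated gene. YPK1, the protein-coding neighbour of PGM1, had 0.56, 0.23, 0.44 and 0.40 and did not pass (adjusted p = 0.286), named after its values were seen.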

How the data were processed

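The authors deposited 1 table of normalized log2 ratios, a column per array; spot intensities were not used. How images were read, background and dye corrected and values left blank, and which condition is the numerator, is not given in the sources used here. Per the labels, treated RNA was in Cy5 on arrays 2 and 4, whose signs were turned. Base and shared numerator came from the values: of 9281 values below 0 after the turn, 100% were base-2 logarithms of a ratio with 4 decimals, within the rounding of the last deposited digit, against 74.8% for natural logarithms, 87.5% for base 10 and, of values above 0, 55.4% for the inverse ratio. The numerator itself is read from mating genes such as FIG1 (mean 5.40), nearly silent in unstimulated cells. As deposited, tested genes correlated across arrays at Pearson r of 0.54 and 0.69 within an orientation and −0.57 to −0.24 between orientations, and more weakly by rank, at Spearman rho of 0.36 and 0.43 within and −0.18 to 0.0023 between. Column medians were −0.06, 0.02, −0.08 and −0.03 and were kept.

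Of 6209 rows, 2 controls were left out, and rows with 4 values were tested. Arrays of opposite dye were averaged into 2 culture means, tested against 0 with limma 3.58.1 in R 4.3.3 for both possible pairings, with the larger p kept and adjusted by Benjamini-Hochberg over 2715 genes (called under 0.05). The 95% intervals come from the pairing with the larger p. With arrays 1+4 and 3+2 as pairs limma gave all genes 1 common spread, so p-values and intervals from it do not reflect each gene's own spread. Errors are SDs over 4 arrays, which come from 2 cultures, and the number of cultures limits the precision. The smallest p of an exact sign-turn test would be 0.125 even with 4 independent arrays, which these are not, so none was used. The code was run on simulated data in which arrays were drawn independently around a dye effect. With no culture effect in it, that run could not check the pairing of arrays into cultures. The genes, lists and rules for naming were chosen with earlier results of these data known: all 10 genes, their paralogues, up to 2 tested genes per pathway list with the largest mean in size, and the 3 genes nearest in profile. Gene and probe sequences were not used here.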

Additional observations from a re-analysis of the deposited data

How the results depend on the processing

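PGM1, the single call among the 10 genes, kept its call under 11 of the 14 alternatives. The fit of either pairing alone could not lose the call, since the reported fit kept the larger p of both. With arrays 1+2 and 3+4 as pairs the reported adjusted p of 0.0341 by limma came back unchanged. Its direction was the same in all 14, but no choice of arrays could turn it, since all 4 lay far above 0. The count of called genes among the 10 was 2 with arrays 1+4 and 3+2 as pairs (PGM1 and PGM2), 0 with equal scale between arrays, and 0 to 1 without 1 replicate array (0 without array 2 or array 4). Among the 19 other pathway genes it was 0 in the reported fit, 5 with arrays 1+4 and 3+2 as pairs (HXK1, GLK1, FKS1, GSC2 and BCY1, all higher), 2 when the 4 arrays were fitted singly with a dye term, 1 when singly with no such term, 2 on the Cy3-treated arrays alone, and 0 to 1 without 1 replicate array (GLK1 without array 3). Over all tested genes the called number was 60, and 277 with arrays 1+4 and 3+2 as pairs, 119 and 97 for 4 arrays with and without a dye term, 141 on the Cy3-treated arrays alone, and 22 to 129 without 1 replicate array.

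TPS2 turned to −0.33 on the Cy5-treated arrays alone and to −0.20 without array 3. GLC3 turned to 0.45 on the Cy5-treated arrays alone, to 0.01 without array 1 and to 0.21 without array 3. Their ranges without 1 array were −0.20 to 0.48 and −0.25 to 0.21, and neither was called in any fit. The cause was not tested. UGP1, TPS1 and NTH1 kept their direction and were not called under any of the 14. For UGP1 and NTH1 all 4 arrays were above 0, so no choice of arrays could turn their direction. The precursor minus reserve difference was 0.35 to 0.58 without 1 array. Pairing, centring or a dye term cannot move it. Without PGM1 or TPS2, or by medians (added after the data were seen), it was 0.34 to 0.51, but below 0 on array 4. Every ratio is itself treated over untreated within a culture, and both possible pairings of arrays into cultures were fitted; a further block by replicate number was not possible, because the 4 arrays form 1 group. Blank values leave TSL1 and GPH1 untested and GSY2 tested only in the fit of rows with at least 3 values. The 4 arrays come from 2 cultures, which limits the precision.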
